A study of Mus musculus with 8 samples.

Results

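Livers of 8 male C57BL/6 mice were profiled on Affymetrix expression arrays, 1 array per animal, and the genes described here are 37 markers of Kupffer cells and other leukocytes. The labels give 4 mice the genotype MTAP+/-, with 1 intact copy of Mtap, and 4 mice the genotype MTAP+/+. All were between 92 and 101 days old, no treatment is named, and no other allele is named. How the Mtap allele was made, and whether animals of 1 genotype shared a litter or a day of collection, cannot be read from the labels. The members were listed by gene symbol, and all 37 of 37 were found among the 18193 genes that the platform annotation names with exactly 1 symbol. Where a gene had several probe sets, the one with the highest average signal stands for it and the others are given where they differ. Values are log2 signals from RMA, the authors' background correction, normalisation and summary per probe set, so that a difference of 1 is a doubling. Changes are heterozygous minus wild-type throughout.

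Kupffer cells are the resident macrophages of the liver. They sit in the sinusoids, bind and engulf particles, bacteria and old red cells from the portal blood, and depend on signalling through the receptor Csf1r. Their scavenger, complement and Fc receptors catch cargo, lysosomal enzymes break it down, and MHC class II molecules, shared with dendritic cells and B cells, present its peptides to T cells. The list also holds genes common to most leukocytes and a few that mark lymphocytes and natural killer (NK) cells. Whole liver was measured, so fewer cells of a type and less RNA per cell cannot be told apart.

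Promoter sequences are shown for 4 members that stand for the patterns below. Marco and Clec4f lay far on opposite sides of their group in 1 heterozygous liver, and H2-Aa and H2-Eb1 belong to the class II group, the role group with mostly lower means. The sequences are the 250 bases before the gene's start from RefSeq (GRCm38.p6), written 5′ to 3′ on the gene's own strand. Marco and Clec4f were searched for the PU box, the core letters GAGGAA bound by the myeloid factor PU.1, and the class II genes for the Y box, CTGATTGG, bound by the factor NF-Y. Capitals mark the match in Marco, H2-Aa and H2-Eb1, and Clec4f has none to mark. Marco lies at chr1:120505025-120505274 (minus strand), Clec4f at chr6:83656117-83656366 (minus), H2-Aa at chr17:34287824-34288073 (minus) and H2-Eb1 at chr17:34305617-34305866 (plus).
Marco: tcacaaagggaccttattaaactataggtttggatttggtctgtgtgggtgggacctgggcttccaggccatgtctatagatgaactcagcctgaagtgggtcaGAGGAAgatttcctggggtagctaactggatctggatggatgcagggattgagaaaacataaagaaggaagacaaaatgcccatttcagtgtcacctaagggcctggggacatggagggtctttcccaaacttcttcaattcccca
Clec4f: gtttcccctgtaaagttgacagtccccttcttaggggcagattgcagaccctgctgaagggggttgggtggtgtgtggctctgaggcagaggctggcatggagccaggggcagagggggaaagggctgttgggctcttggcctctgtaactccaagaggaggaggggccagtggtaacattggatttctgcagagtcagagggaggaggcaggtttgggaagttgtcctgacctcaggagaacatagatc
H2-Aa: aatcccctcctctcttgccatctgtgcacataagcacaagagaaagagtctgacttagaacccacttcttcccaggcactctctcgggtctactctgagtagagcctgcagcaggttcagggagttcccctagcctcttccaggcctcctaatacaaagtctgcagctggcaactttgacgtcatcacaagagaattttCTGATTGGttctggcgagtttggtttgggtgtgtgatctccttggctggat
H2-Eb1: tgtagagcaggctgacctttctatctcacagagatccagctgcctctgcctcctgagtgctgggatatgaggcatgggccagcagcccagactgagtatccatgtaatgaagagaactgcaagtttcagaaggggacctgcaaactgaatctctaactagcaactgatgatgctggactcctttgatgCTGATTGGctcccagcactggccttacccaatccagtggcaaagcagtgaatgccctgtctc

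Both strands were searched in these windows. The 27 members with a sequence in that table have 30 windows, since a gene can have several starts. A PU box was found in 16 of these 30 windows, belonging to 15 members, against 23.3% of all 32851 windows. Of these 15, heterozygous replicate 2 was above the mean of the other heterozygous livers for Aif1, Cd5l, Cd68, Fcgr1, Itgam, Laptm5, Marco and Ptprc. It was below that mean for C1qb, C1qc, Cd53, Ctss, Fcgr3, Mrc1 and Vsig4. The box was thus found in members of both directions. The match in Marco lay 140 bases before the start. The Y box letters occurred in 2 of the 30 windows, against 3.83% of all windows. These belong to H2-Aa and H2-Eb1, with the match at 43 and 54 bases before the start. H2-Ab1 had no sequence in that table and was not searched. Each motif was searched independently of the other. A match is a description of the letters and not a measured binding site.

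Of the 37 members 30 had a higher mean in heterozygous liver, where 45.3% of all genes did, but no member passed the test. Some lists of other liver cells, given below, also had mostly higher means. Of 10 hepatocyte genes 8 were higher, with a median change of 0.03. By limma with Benjamini-Hochberg adjustment over all genes 0 of the 37 members passed 0.05, where 0.0495% of all genes (9) did. The smallest adjusted p of a member was 0.249, for Mpeg1. At an unadjusted limma p under 0.05, 8 members (21.6%) were higher and 0 were lower, while 4.4% of all genes were higher and 4.74% lower. Leaving out heterozygous replicate 4 lowered that count from 8 to 4, and leaving out wild-type replicate 2 lowered it to 5. In 4 members (10.8%), Adgre1, Mpeg1, Itgam and Nkg7, every heterozygous liver lay above every wild-type liver, against 1.95% of all genes. In 0 members did every heterozygous liver lie below, against 2.7% of all genes. The median member change was 0.30, and that of all genes was -0.02.

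**Figure D1:**
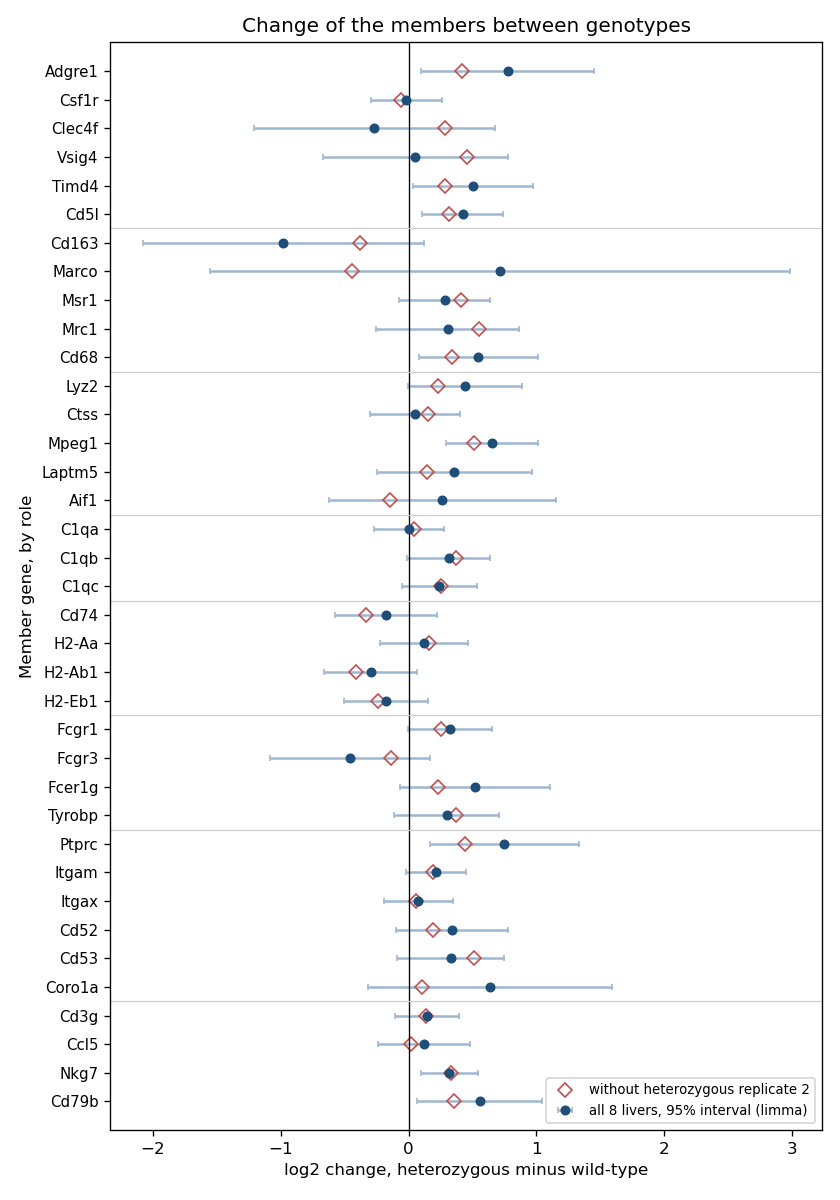
Change of each of the 37 members in log2 units, heterozygous minus wild-type, with the members on the vertical axis ordered by role. Filled points with bars are the limma estimates and 95% intervals from all 8 livers (4 per genotype), and open diamonds are the estimates without heterozygous replicate 2. Most points lie to the right of 0, with a median of 0.30, and the diamonds of Marco, Clec4f and Aif1 lie on the other side of 0 from their points.

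Heterozygous replicates 2 and 4 held the highest value of the 8 livers for 27 of the 37 members. Averaged over all 37 members, the log2 signal was 7.02, 7.41, 7.05 and 7.40 in heterozygous replicates 1 to 4 and 7.09, 7.01, 6.97 and 6.92 in wild-type replicates 1 to 4. Heterozygous replicates 2 and 4 thus stood above all other livers, and heterozygous replicates 1 and 3 lay within the wild-type range. Replicate 2 had the highest value of the 8 livers for 16 members (43.2%), where it was highest for 12% of all genes. In lists given below it was highest for 6 of 10 hepatocyte, 5 of 12 endothelial and 3 of 12 stellate genes. It was highest for 1 of 8 dendritic, 1 of 6 red cell and platelet and 0 of 5 cholangiocyte genes. Replicate 4 was highest for 11 members, against 12.1% of all genes. Replicate 4 was lowest for 0 members (11.5% of all genes), and replicate 2 was lowest for 4 members (10.8%; 19% of all genes).

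**Figure D2:**
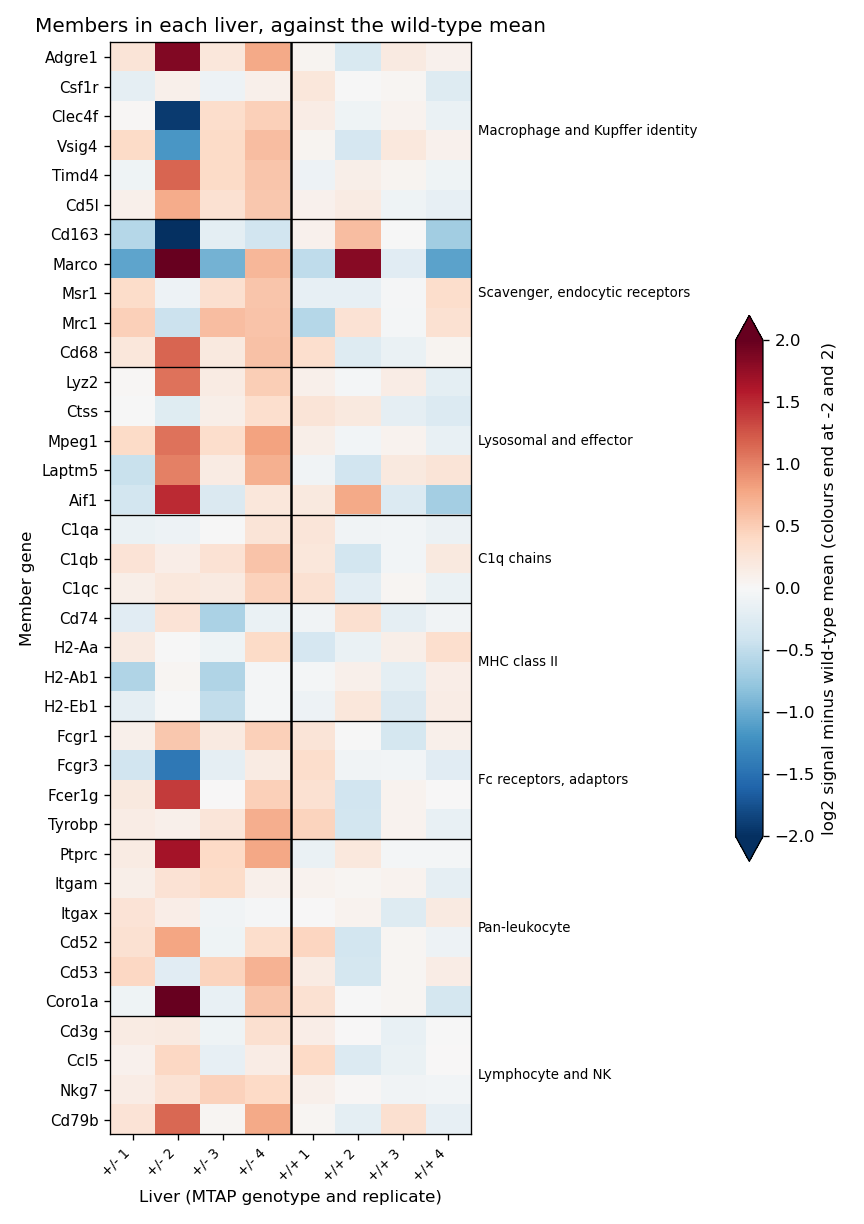
Each member (rows, grouped by role) in each of the 8 livers (columns), as the log2 signal minus the mean of the 4 wild-type livers. Red is above and blue is below that mean, and colours end at -2 and 2, which Marco, Coro1a and Cd163 pass in heterozygous replicate 2. The columns of heterozygous replicates 2 and 4 are mostly red, and replicate 2 also holds the darkest blue cells.

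Heterozygous replicate 2 stood apart on its array as a whole as well. In it 1.52% of all genes were over 1 log2 unit from the mean of the other animals of its genotype, where the other 7 livers ranged from 0.236% to 1.04%. Among the members this held for 10 of 37 in that liver, 6 above and 4 below, and for 0 to 3 in the other livers. A change is therefore given also without this liver wherever leaving it out moved a member by over 1.5 times. Without it 29 of the 37 members had a higher mean, against 48.3% of all genes, the median member change was 0.23, and 0 members passed, against 0.0715% of all genes. At an unadjusted p under 0.05, 10 members were then higher and 1 was lower, against 5.9% and 6.3% of all genes. Of the 8 members higher at an unadjusted p in all 8 livers, 5 were also so without it, namely Adgre1, Cd5l, Mpeg1, Ptprc and Nkg7.

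The identity genes of Kupffer cells went in different directions in that liver. Adgre1, an adhesion G protein-coupled receptor used to define mouse macrophages, read 7.32, 8.93, 7.29 and 7.83 in heterozygous and 7.12, 6.76, 7.24 and 7.14 in wild-type livers. The groups did not overlap, but heterozygous replicates 1 and 3 lay less than 0.1 above the highest wild-type liver. Its means were 7.84 ± 0.76 (SD, n = 4) and 7.07 ± 0.21, a change of 0.78 ± 0.31 (SE; limma adjusted p = 0.468; exact two-sided permutation p = 0.0286, the smallest that 4 against 4 allow). Without heterozygous replicate 2 the change was 0.42.

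Clec4f, a lectin found in mouse almost solely on Kupffer cells, read 9.0, 7.06, 9.34 and 9.45 in heterozygous and 9.13, 8.90, 9.05 and 8.85 in wild-type livers. Heterozygous replicate 2 was far below all others, a 4.60-fold lower signal than the mean of the other heterozygous animals, and replicates 3 and 4 were above every wild-type liver. The change was -0.27 ± 0.43 (SE, limma adjusted p = 0.899) over all livers and 0.28 without replicate 2. Vsig4, the complement receptor that clears opsonised particles, had the same shape. It read 9.74, 8.20, 9.75 and 9.98 in heterozygous and 9.42, 9.02, 9.56 and 9.44 in wild-type livers, so that 3 heterozygous livers were above and 1 was below the whole wild-type range. Its change was 0.05 ± 0.33 (SE, limma adjusted p = 0.980), and 0.46 without replicate 2 (unadjusted p = 0.00872, adjusted p = 0.243).

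Timd4, a receptor for phosphatidylserine on dying cells, read 4.73, 5.98, 5.21 and 5.39 in heterozygous and 4.73, 4.95, 4.87 and 4.75 in wild-type livers. Of the heterozygous livers 3 were above the wild-type range and replicate 1 was level with its lowest (change 0.50 ± 0.21, SE; limma adjusted p = 0.512; exact permutation p = 0.114). Without replicate 2 the Timd4 change was 0.29 (unadjusted p = 0.0911). Cd5l, a secreted scavenger receptor protein of tissue macrophages, read 10.64, 11.29, 10.84 and 11.09 in heterozygous and 10.63, 10.71, 10.45 and 10.38 in wild-type livers. Here too 3 heterozygous livers were above the range, and the change was 0.42 ± 0.15 (SE; limma adjusted p = 0.403; exact permutation p = 0.0571), or 0.31 without replicate 2. Csf1r, the receptor on which macrophage survival depends, was level between genotypes. Its change was -0.02, with a 95% interval from -0.29 to 0.26, and its 3 probe sets were at -0.02, -0.02 and -0.10, and the first was at -0.06 without heterozygous replicate 2.

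Among scavenger and endocytic receptors Marco had the widest range of all 37 members. Marco, a receptor that binds bacteria and unopsonised particles, read 4.73, 9.97, 4.84 and 6.44 in heterozygous and 5.27, 7.60, 5.55 and 4.70 in wild-type livers. The high livers were replicate 2 of each genotype, and the remaining livers lay between 4.70 and 6.44. In heterozygous replicate 2 its signal was 24.8 times that of the mean of the other heterozygous animals. Its means were 6.50 ± 2.44 (SD, n = 4) and 5.78 ± 1.26, and the change of 0.72 ± 1.03 (SE, limma adjusted p = 0.888) turned to -0.44 without that liver. A second Marco probe set gave 9.18 in heterozygous replicate 2, 7.02 in wild-type replicate 2 and 4.24 to 5.16 elsewhere.

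Cd163, the receptor for haptoglobin-bound haemoglobin, did the reverse in that liver. It read 6.54, 4.33, 6.91 and 6.73 in heterozygous and 7.19, 7.73, 7.10 and 6.42 in wild-type livers. The lowest liver was heterozygous replicate 2, at 5.26-fold below the mean of the other heterozygous animals, and the highest was wild-type replicate 2, so replicate 2 was high for Marco in both genotypes but not low for Cd163 in both. The change was -0.98 ± 0.50 (SE; limma adjusted p = 0.602; exact permutation p = 0.171), and -0.38 without heterozygous replicate 2. Mrc1, the mannose receptor, read 8.60, 7.70, 8.74 and 8.70 in heterozygous and 7.56, 8.42, 8.10 and 8.44 in wild-type livers. Without replicate 2 the other heterozygous livers all exceeded the wild-type ones, and the change went from 0.31 to 0.55 (adjusted p = 0.295 by limma).

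The 2 further receptors of this group had higher means. Cd68, a lysosomal glycoprotein of phagocytes, read 6.46, 7.41, 6.43 and 6.83 in heterozygous and 6.58, 5.98, 6.10 and 6.30 in wild-type livers. Replicates 2 and 4 were above the wild-type range and replicates 1 and 3 were inside it (change 0.54 ± 0.21, SE; limma adjusted p = 0.459; exact permutation p = 0.0857). Without replicate 2 the Cd68 change was 0.34 (unadjusted p = 0.0609). Msr1, the class A scavenger receptor, was at 0.28 (limma adjusted p = 0.642) and at 0.41 without heterozygous replicate 2. Its 3 other probe sets were at 0.21, -0.02 and -0.09.

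**Figure D3:**
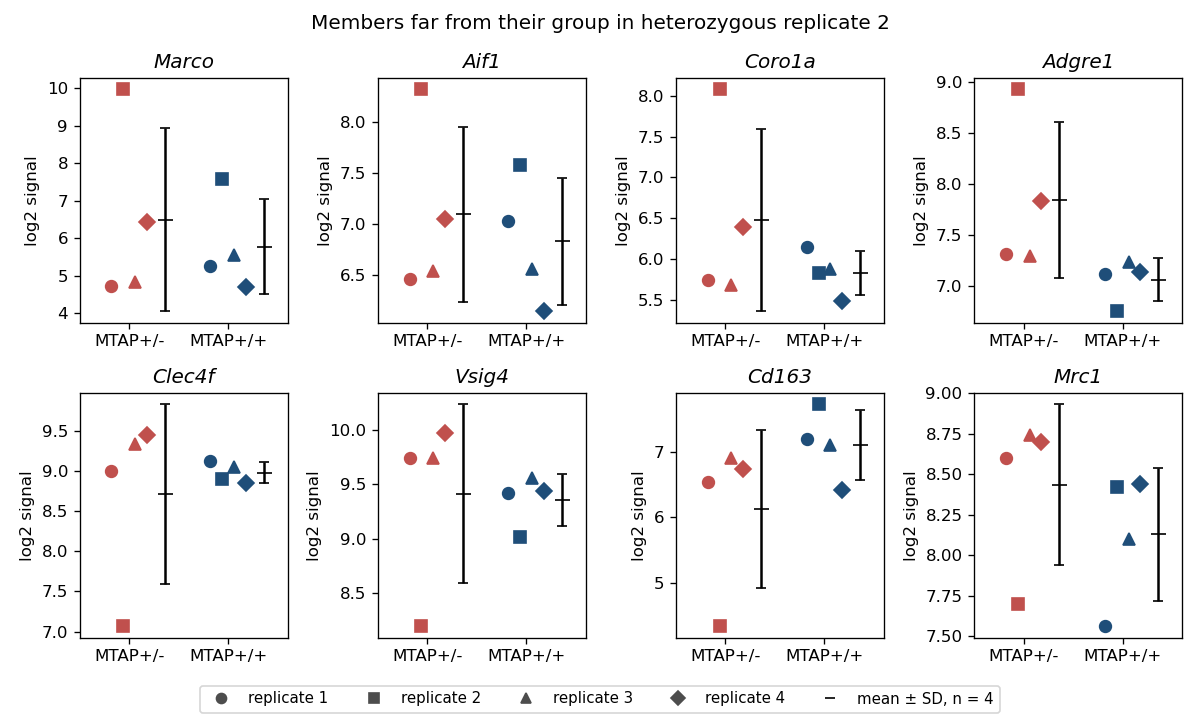
The log2 signal of 8 members in every liver, with heterozygous animals in red, wild-type animals in blue, a marker shape for each replicate number, and the mean ± SD (n = 4) beside each group. Vertical axes do not start at 0 and differ between panels. In the top row (Marco, Aif1, Coro1a and Adgre1) heterozygous replicate 2 (square) is the highest liver, and in Clec4f, Vsig4 and Cd163 it is the lowest. These 8 were chosen after their values were seen.

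Lysosomal and effector genes had higher means in 5 of 5 members, with a median change of 0.36. Without heterozygous replicate 2 the means of 4 of the 5 were higher and the median was 0.15. Mpeg1, which encodes perforin-2, a pore-forming protein that kills engulfed bacteria, read 8.93, 9.64, 8.90 and 9.35 in heterozygous and 8.68, 8.5, 8.62 and 8.41 in wild-type livers. Every heterozygous liver was above every wild-type liver, and replicates 1 and 3 cleared the highest of them by about 0.2. The means were 9.21 ± 0.36 (SD, n = 4) and 8.55 ± 0.12, a change of 0.65 ± 0.16 (SE) or 1.57-fold (limma adjusted p = 0.249; exact permutation p = 0.0286). It was higher at an unadjusted p under 0.05 in all 17 fits made, the reported one and 16 alternatives, as were Cd5l and Ptprc. Lyz2, lysozyme of macrophages and granulocytes, was at 0.44 (limma adjusted p = 0.551) and at 0.23 without heterozygous replicate 2, with 9.70 in that liver and 8.41 to 9.10 in the others.

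Laptm5, a lysosomal membrane protein of blood cells, was at 0.36 (0.14 without heterozygous replicate 2), read from a probe set of a kind that can cross-hybridise. Its 4 other probe sets were at 0.10 to 0.23. Aif1, the actin-binding protein Iba1, was at 0.26 over all livers and at -0.14 without heterozygous replicate 2, where it was 8.32 against 6.14 to 7.58 elsewhere. Wild-type replicate 2 held that second-highest value of 7.58, as it did for Marco. Ctss, cathepsin S, which trims the class II chaperone in antigen-presenting cells, was at 0.05, with a 95% interval from -0.30 to 0.40, and at 0.15 without heterozygous replicate 2.

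The 3 chains of C1q, the recognition protein that starts the classical complement pathway and is made mainly by macrophages, did not share the extremes of heterozygous replicate 2. C1qa read 8.88, 8.92, 9.01 and 9.28 in heterozygous and 9.27, 8.94, 8.96 and 8.90 in wild-type livers. C1qb read 8.61, 8.48, 8.64 and 8.91 in heterozygous and 8.57, 7.98, 8.29 and 8.54 in wild-type livers. C1qc read 8.66, 8.75, 8.72 and 9.0 in heterozygous and 8.85, 8.33, 8.59 and 8.40 in wild-type livers. All 3 were highest in heterozygous replicate 4, and the groups overlapped for each.

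The chains were at 0.005 (C1qa, 0.039 without heterozygous replicate 2), 0.31 (C1qb) and 0.24 (C1qc), with limma adjusted p of 0.995, 0.567 and 0.634. The 95% intervals ran from -0.27 to 0.28, from -0.01 to 0.64 and from -0.05 to 0.53. The 2 other probe sets of C1qb were at 0.27 and 0.24. Relative to the other heterozygous livers, replicate 2 was at -0.14, -0.24 and -0.04 for the 3 chains, small beside the -2.20 of Clec4f and 4.63 of Marco.

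MHC class II genes formed the role group with a negative median, -0.18, and 3 of its 4 members had lower means. Without heterozygous replicate 2 the median was -0.28. Cd74, the invariant chain that guides class II molecules to the endosome, read 8.06, 8.56, 7.66 and 8.15 in heterozygous and 8.22, 8.61, 8.11 and 8.21 in wild-type livers. H2-Ab1, a class II beta chain, read 6.16, 6.81, 6.17 and 6.74 in heterozygous and 6.72, 6.86, 6.58 and 6.91 in wild-type livers. H2-Eb1, the beta chain of the E molecule, read 7.10, 7.27, 6.78 and 7.23 in heterozygous and 7.18, 7.51, 6.98 and 7.43 in wild-type livers. In these 3 genes heterozygous replicates 1 and 3 were the low livers of their genotype, the animals whose mean over all members lay within the wild-type range.

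The alpha chain differed from its partners. H2-Aa read 9.09, 8.90, 8.84 and 9.30 in heterozygous and 8.58, 8.79, 9.03 and 9.25 in wild-type livers. The 2 groups overlapped. The probe sets used for H2-Aa and H2-Ab1 have names ending in _x_at or _s_at, kinds that can cross-hybridise, as do those of Laptm5 and Aif1. Those of Cd74, Adgre1, Ptprc and Coro1a end in _a_at, which an alternative fit left out together with those kinds. In the class II group H2-Eb1 alone had none of these endings. The changes were -0.18 (Cd74), 0.12 (H2-Aa), -0.30 (H2-Ab1) and -0.18 (H2-Eb1), with limma adjusted p of 0.825, 0.877, 0.634 and 0.776. All 3 probe sets of H2-Ab1 were lower, by values of -0.30, -0.40 and -0.18. Without heterozygous replicate 2 Cd74 was at -0.33 (unadjusted p = 0.0608). H2-Ab1 was then at -0.41 (unadjusted p = 0.0251, adjusted p = 0.328), the member that was lower at an unadjusted p under 0.05. Both H2-Aa and H2-Eb1 carry the Y box shown above, and their changes had opposite signs.

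Fc receptors and their signalling adaptors were mixed. Fcer1g, the common gamma chain that pairs with activating Fc receptors, read 6.83, 8.03, 6.65 and 7.11 in heterozygous and 6.94, 6.25, 6.71 and 6.65 in wild-type livers. Replicates 2 and 4 were above the wild-type range (change 0.52 ± 0.27, SE; limma adjusted p = 0.606), and the change was 0.23 without replicate 2. Fcgr3, the low-affinity IgG receptor that signals through that chain, read 6.43, 5.38, 6.63 and 6.98 in heterozygous and 7.17, 6.75, 6.76 and 6.59 in wild-type livers. Thus the receptor was lowest and its partner chain highest in heterozygous replicate 2, and the change of Fcgr3 went from -0.46 to -0.14 without that liver. Fcgr1, the high-affinity IgG receptor, was at 0.32 (limma adjusted p = 0.559), and Tyrobp, the adaptor DAP12, at 0.30 (limma adjusted p = 0.673).

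The pan-leukocyte group had higher means in 6 of 6 members, with a median change of 0.34. It also holds the dim integrins Itgam and Itgax, described below, which belong to myeloid and dendritic cells. Without heterozygous replicate 2 all 6 were still higher and the median was 0.19. Ptprc, the leukocyte phosphatase CD45, read 6.65, 8.15, 6.88 and 7.25 in heterozygous and 6.35, 6.70, 6.45 and 6.45 in wild-type livers. Of the heterozygous livers 3 were above the wild-type range, with replicate 1 just inside it, and the means were 7.23 ± 0.66 (SD, n = 4) and 6.49 ± 0.15. The change was 0.75 ± 0.26 (SE; limma adjusted p = 0.420; exact permutation p = 0.0571), and 0.44 without heterozygous replicate 2. Its second probe set lay below the array medians and was at 0.29.

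Coro1a, an actin regulator of leukocytes, read 5.75, 8.07, 5.69 and 6.39 in heterozygous and 6.15, 5.84, 5.88 and 5.50 in wild-type livers. Its change of 0.64 (limma adjusted p = 0.714) became 0.10 without heterozygous replicate 2, which was 4.38 times the mean of the other heterozygous animals. A second probe set was at 0.60, and another, well below the array medians, at -0.02. Cd52 was at 0.34 (adjusted p = 0.658) and Cd53, a tetraspanin, at 0.33 (adjusted p = 0.645), both by limma. They differed in heterozygous replicate 2, which was highest of its genotype for Cd52 (8.43) and lowest for Cd53 (7.01), and without it Cd52 was at 0.19 and Cd53 at 0.52 (unadjusted p = 0.00482, adjusted p = 0.212).

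The 2 integrins of the list were dim. Itgam, the CD11b integrin of myeloid cells, read 3.07, 3.25, 3.33 and 3.06 in heterozygous and 3.03, 3.0, 3.04 and 2.78 in wild-type livers. The groups did not overlap (change 0.22; limma adjusted p = 0.595; exact permutation p = 0.0286). All these values lie below the array medians of 3.91 to 3.97, and no detection call was at hand to tell them from background. Itgax, the CD11c integrin of dendritic cells, lay between 3.74 and 4.27 and was at 0.08.

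Markers of lymphocytes and NK cells had higher means in 4 of 4 members, with a median change of 0.23. Nkg7, a granule membrane protein of NK and cytotoxic T cells, read 3.94, 4.08, 4.26 and 4.19 in heterozygous and 3.90, 3.82, 3.73 and 3.75 in wild-type livers. The groups did not overlap, and heterozygous replicate 2 was not the extreme here. The means were 4.12 ± 0.14 (SD, n = 4) and 3.80 ± 0.07, a change of 0.32 ± 0.10 (SE; limma adjusted p = 0.355; exact permutation p = 0.0286) at signals close to the array medians.

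Cd79b, a signalling chain of the B cell receptor, read 4.99, 5.86, 4.75 and 5.47 in heterozygous and 4.76, 4.52, 5.03 and 4.55 in wild-type livers. Heterozygous replicates 2 and 4 were above the wild-type range (change 0.56 ± 0.22, SE; limma adjusted p = 0.470; exact permutation p = 0.143), and the Cd79b change was 0.36 without replicate 2 (unadjusted p = 0.0790). Ccl5, a chemokine of T and NK cells, was at 0.12 (0.022 without that liver), and Cd3g, a chain of the T cell receptor complex, at 0.14, with all its values below the array medians. Of 16 further T, NK and B cell genes 0 reached an unadjusted p under 0.05, and their median change was 0.10. Of all genes 4.4% were higher and 4.74% lower at that level. Cd79a, the partner of Cd79b, was at 0.22 (adjusted p = 0.667) and was 4.56 in heterozygous replicate 2 and 4.87 in replicate 1. The B cell chains thus had different top livers, and Cd3d, next in order of p, was at 0.16 (adjusted p = 0.771 by limma).

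**Figure D4:**
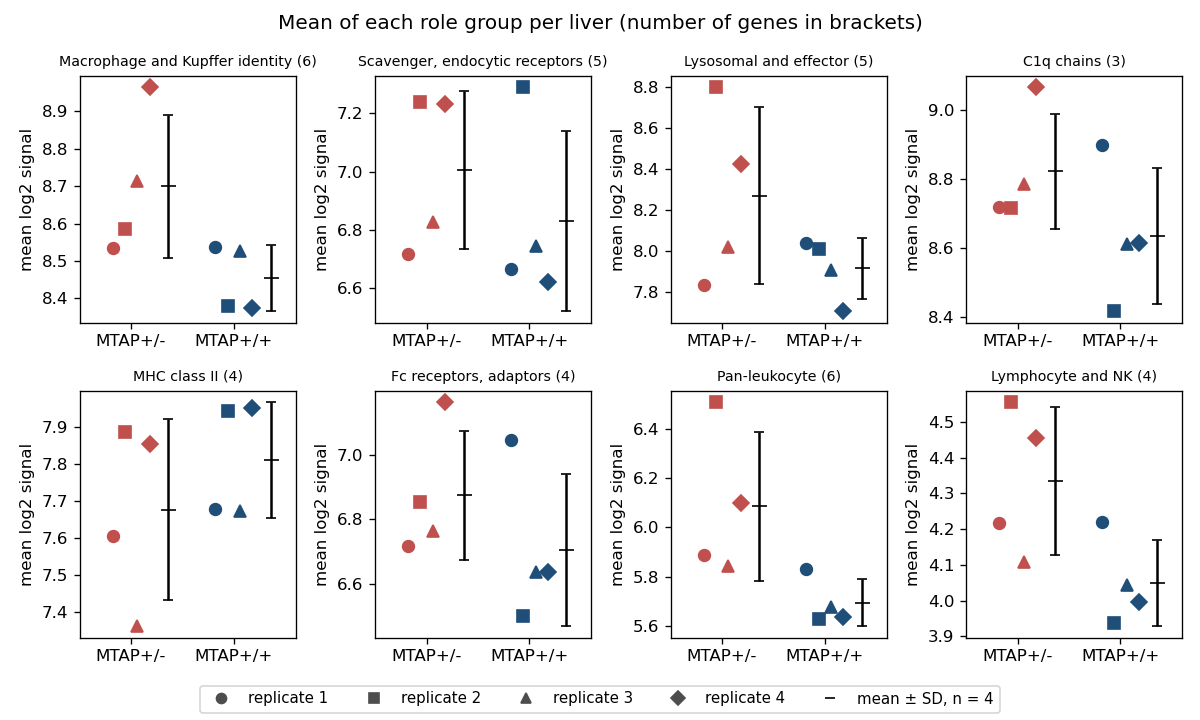
Mean log2 signal over the genes of each of the 8 role groups, per liver, with heterozygous animals in red, wild-type animals in blue, a marker shape for each replicate number and the mean ± SD (n = 4) beside each group. Vertical axes do not start at 0 and differ between panels, and levels are not to be compared between panels. Heterozygous replicate 4 (diamond) is highest for identity, C1q and Fc receptor genes, replicate 2 (square) for lysosomal, pan-leukocyte and lymphocyte genes, and class II genes are lowest in heterozygous replicate 3 (triangle).

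Averages over role groups separate the 2 high livers. The C1q mean was 9.07 in heterozygous replicate 4 and 8.42 to 8.90 in the other 7 livers. The pan-leukocyte mean was 6.51 in heterozygous replicate 2, 6.10 in replicate 4 and 5.63 to 5.89 elsewhere. Members also spread more within heterozygous than within wild-type animals. The SD was larger in the heterozygous group for 27 of 37 members (73.0%; 46.6% of all genes), and for 17 (45.9%; 34.8% of all genes) without heterozygous replicate 2.

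Further Kupffer cell genes, from a list outside the 37, were described in the same way. Of 24 measured, 19 had higher means, against 45.3% of all genes, and the median was 0.09. At an unadjusted p under 0.05, 4 were higher and 0 lower, against 4.4% and 4.74% of all genes, and 0 passed after adjustment. Slc40a1, the iron exporter ferroportin, had the smallest p (0.70 ± 0.16, SE; limma adjusted p = 0.226), with 10.10 to 10.71 in heterozygous and 9.45 to 10.07 in wild-type livers. Cybb, a subunit of the phagocyte oxidase, followed with 0.58 (limma adjusted p = 0.339). The list had its highest value in heterozygous replicate 2 for 11 of 24 genes and its lowest there for 3, against 12% and 19% of all genes.

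Genes of this list and others lay far out in that liver, and those named here were chosen after their values were seen. Hmox1, haem oxygenase, was 7.63 in heterozygous replicate 2 and 5.49 to 6.65 elsewhere. Spic, a transcription factor of macrophages that recycle haem iron, was 6.69 there and 4.31 to 4.79 elsewhere. Cd14, a co-receptor for lipopolysaccharide, was 6.87 there and 5.48 to 6.01 elsewhere. Folr2, a folate receptor of resident macrophages, was 6.11 there and 6.64 to 7.62 elsewhere, and Ccl24 was 4.63 there and 5.33 to 6.23 elsewhere. High Marco, Hmox1, Spic and Cd14 thus stood beside low Clec4f, Vsig4, Cd163 and Folr2 in the same liver. The identity genes Adgre1 (8.93), Timd4 (5.98) and Cd5l (11.29) were highest there, so identity genes lay on both sides.

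Of genes that control macrophages 6 of 11 had higher means, against 45.3% of all genes, and the median was 0.05. At an unadjusted p under 0.05, 1 gene was higher and 0 were lower, against 4.4% and 4.74% of all genes. That gene was Tgfbr1, a receptor for TGF-beta, at 0.48 (limma adjusted p = 0.307), and Spic was next (0.74, adjusted p = 0.626, and 0.22 without heterozygous replicate 2). Class II partners and regulators had a median of 0.01 with 0 of 14 at an unadjusted p under 0.05. Rfxap, a part of the complex that binds class II promoters, was at -0.42 and Nfya, a subunit of NF-Y, at 0.25 (adjusted p = 0.556 by limma for both), with Nfya at 0.16 without heterozygous replicate 2. Ciita, the master regulator of class II genes, was at -0.06 and lay below the array medians, and it was named outside the rule. Class I presentation genes had a median of -0.08, with 0 of 9 at that level, Nlrc5 at 0.38 and Tap2 at -0.26.

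Heterozygous replicate 4 stood out for some genes of neutrophils and monocytes and not for others. The list of neutrophil and monocyte genes averaged 4.40 to 4.96 in heterozygous and 4.19 to 4.58 in wild-type livers, with replicate 4 highest. Of its 13 measured genes 10 had higher means, against 45.3% of all genes, and the median was 0.07. At an unadjusted p under 0.05, 1 gene was higher and 0 lower, against 4.4% and 4.74% of all genes. That gene was Plac8 (0.73, limma adjusted p = 0.450). S100a8, a calcium-binding protein abundant in neutrophils, was 6.45 in replicate 4 and 3.78 to 4.99 elsewhere, and S100a9 was 7.66 there and 5.03 to 5.87 elsewhere. Among 17 chemokines and cytokines 4 were higher at an unadjusted p under 0.05 and 0 lower, against 4.4% and 4.74% of all genes. They were led by Ccl9 (0.71, adjusted p = 0.335) and the neutrophil attractant Cxcl1 (1.20, adjusted p = 0.337), with p from limma. Ccl2, which draws monocytes and was also among these 4, was 6.58 in replicate 4 and 4.15 to 4.91 elsewhere. Of the 13 neutrophil and monocyte genes 6 were highest in replicate 4, against 12.1% of all genes. Others lay there within the range of the remaining livers, as did Cxcr2 (4.05), Mpo (3.47), Camp (3.48), Ltf (3.14) and Csf3r (5.58). In replicate 4 Mpo, Camp and Ltf were below the array medians of 3.91 to 3.97, and Cxcr2 was close to them. By their means 5 of the 13 genes lay below the array medians, namely Mpo, Camp, Ltf, Chil3 and F13a1. Of these, Chil3 and F13a1 are among the 6 genes highest in replicate 4. Chil3 was 3.71 there and 2.24 to 2.62 elsewhere, and F13a1 was 4.14 there and 3.20 to 3.88 elsewhere. Genes this dim carry little weight on whether replicate 4 differs, in either direction. Cxcr2, Mpo, Camp, Ltf, Csf3r, Chil3, F13a1, S100a9 and Ccl2 were chosen after their values were seen.

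Markers of other liver cells were averaged per liver in the same way. Hepatocyte genes (10 measured) averaged 12.20 to 12.47 in heterozygous and 12.16 to 12.35 in wild-type livers, with replicate 2 of the heterozygous animals highest. Sinusoidal endothelial genes averaged 6.93 to 7.15 and 6.84 to 6.98, again with that liver highest. Stellate and fibroblast genes averaged 7.06 to 7.30 and 6.97 to 7.23, also with heterozygous replicate 2 highest. Red cell and platelet genes averaged 5.12 to 5.35 and 4.79 to 5.20, and dendritic cell genes 4.74 to 4.91 and 4.73 to 4.90. For both of these lists heterozygous replicate 4 was highest. Cholangiocyte genes averaged 3.99 to 4.25 and 4.09 to 4.29, with wild-type replicate 3 highest. Of 9 listed red cell and platelet genes 6 were measured. By their means 2 of these lay below the array medians, among them Hba-a1 (2.21 to 2.66), so that average is no measure of blood content. Ass1, in the hepatocyte list, read 4.26 to 5.43, far below the list's average. The part of other cell types in the members' values was not tested.

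Means were higher for 8 of 10 hepatocyte, 8 of 12 stellate and 7 of 12 endothelial genes, against 45.3% of all genes. They were higher for 5 of 8 dendritic, 4 of 6 red cell and platelet and 2 of 5 cholangiocyte genes. The median changes of these lists were 0.03, 0.11, 0.02, 0.04, 0.18 and -0.05, in that order. Their counts at an unadjusted p under 0.05 can be set against the 4.4% of all genes that were higher. At that level 1 of 12 endothelial genes was higher (Flt4, 0.29), and the lymphatic and sinusoidal receptor Lyve1 was at 0.81 without reaching it. Of 12 stellate genes 2 were higher (Rgs5, 0.65, and Colec11, 0.39). In the dendritic, cholangiocyte, hepatocyte and red cell and platelet lists no gene reached that level in either direction. Their genes of smallest p were Cd209a (0.22) and Siglech (-0.19, or -0.05 without heterozygous replicate 2), Sox9 (-0.33) and Cldn7 (0.23), Apob (0.36) and Fgb (0.09), and Ppbp (0.35, or 0.16 without that liver) and Pf4 (0.35).

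The labels were checked on Mtap, whose 4 probe sets averaged 32.2% to 57.6% of the wild-type level in heterozygous livers. Its representative probe set read 6.72 to 6.99 in heterozygous and 7.57 to 7.82 in wild-type livers (limma adjusted p = 0.0281). Correlations between arrays over all genes were 0.985 to 0.995, and no array was a copy of another. The labels name separate mice and no litter or batch, so the p-values take the livers as independent. The number of arrays limits the precision, and RMA is known to compress differences of dim transcripts.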

How the data were processed

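RNA was isolated from 8 livers with TRIzol, biotin-labelled and hybridised to Affymetrix arrays, per the labels' protocols. The deposited table holds log2 signals for 45101 probe sets, made by the authors with RMA, as the submitters' processing notes name it. No source used here gives its software, version or settings, and the log2 scale was read from the values (1.64 to 14.7). After 64 control probe sets were set aside, 45037 remained, of which 34945 carried exactly 1 gene symbol, 932 several and 9160 none. All 37 members matched the RefSeq gene table by gene ID with 0 symbols changed.

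A two-sided comparison of the genotypes was fitted by lmFit with eBayes (limma 3.58.1, R 4.3.3) to 18193 genes, 4 against 4 livers, with Benjamini-Hochberg adjustment over all genes at 0.05. Single members were also compared by exact permutation over the 70 splits. The fit was tested on simulated data with independent noise and planted changes. These held no outlying array, so they do not show how the fit behaves with a liver such as heterozygous replicate 2. The members, role groups and further lists were chosen with earlier results of these data known. Every member was named. Values per animal were given for members with an unadjusted p under 0.05, the largest change in each role group, C1q and class II genes and members whose probe sets differed in sign with a change of at least 0.3. From each further list the 2 genes of smallest p were named. Members and genes shown per animal outside this rule (Clec4f, Vsig4, Marco, Mrc1, Fcgr3, Itgam and values in single livers) were chosen after their values were seen. Other settings tried were averaging all probe sets of a gene, dropping probe sets whose names end in _a_at, _s_at or _x_at, and a minimum mean of 5. Further ones were a trended robust eBayes, weighting of arrays, a second quantile normalisation, centring on array medians and a replicate block. Each array was also omitted in turn, and an adjusted threshold of 0.1 was tried.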

Additional observations from a re-analysis of the deposited data

Results flagged for a closer look

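Within each genotype the highest and the lowest liver of every member, each role group mean and the mean over all members were set against the other 3, and 4 of 92 such groups had a liver farther out than Dixon's 95% limit. Chance alone gives about 1 in 20. In 3 of the 4 the liver was heterozygous replicate 2, each time as the lowest. Vsig4 was 8.20 there and 9.74 to 9.98 in the other heterozygous livers. Cd163 was 4.33 there, with 6.54 to 6.91 in the others. Mrc1 was 7.70 there, with 8.60 to 8.74 in the others. The remaining one was Itgam, at 2.78 in wild-type replicate 4 and 3.0 to 3.04 in the other wild-type livers, below the array medians. Marco, Coro1a and Adgre1, where heterozygous replicate 2 was highest, did not pass that limit, because heterozygous replicate 4 lay between it and the others.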

How the results depend on the processing

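No member passed an adjusted p of 0.05 under any of the 16 alternatives, nor 0.1 in the fit as reported, and the smallest member adjusted p ranged from 0.204 to 0.562 over the alternatives. The median member change stayed between 0.22 and 0.33, and higher means were found for 27 to 31 of 37 members wherever all 37 were tested. The count of all genes past the threshold, 9 as reported, was 4 with probe sets averaged per gene, 4 with dim genes left out and 3 to 20 when 1 array was left out. It was 3 after omitting heterozygous replicate 1, and omitting wild-type replicates 1 to 4 in turn gave 5, 4, 5 and 20. Members higher at an unadjusted p under 0.05, 8 as reported, numbered 4 to 12 when 1 array was left out, down to 4 when heterozygous replicate 4 was the one omitted and 5 when it was wild-type replicate 2. Members lower at that level, 0 as reported, numbered 1 with the mean of probe sets, 1 with array weights and 1 with the replicate block, H2-Ab1 each time, and 0 to 1 when 1 array was left out. Those were H2-Ab1 without heterozygous replicate 2, Cd163 without heterozygous replicate 3 or wild-type replicate 4, and Fcgr3 without heterozygous replicate 4.

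The sign of 9 members changed somewhere and that of 28 never. When 1 array was left out, Csf1r ran from -0.11 to 0.060, Clec4f from -0.51 to 0.28, Vsig4 from -0.13 to 0.46, Marco from -0.44 to 1.32, Ctss from -0.045 to 0.15, Aif1 from -0.14 to 0.52, C1qa from -0.081 to 0.088 and Itgax from -0.0099 to 0.14. Clec4f was at 0.044 with array weights and C1qa at -0.0138 with arrays centred on their median. Coro1a was at -0.0239 without the probe sets ending in _a_at, _s_at or _x_at, which leaves its dim probe set alone. The causes of the other sign changes were not tested.

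Replicate numbers are shared by the genotypes, and the labels do not say whether they pair the animals. Deviations of same-numbered livers correlated at -0.10, 0.15, 0.03 and 0.14. Only heterozygous replicate 4 and wild-type replicate 2 correlated best with the liver of their own number. Such values cannot tell whether same-numbered livers shared a day or a batch. With the replicate block 6 genes and 0 members passed, and 12 members were higher at an unadjusted p under 0.05. No detection calls were used, so values near the array medians carry little weight.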
